A study of Mus musculus with 2 samples.

Results

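The genes described here are 10 genes of cholesteryl ester storage and lipid droplets, taken by symbol from 18168 annotated genes with reads in the adrenal gland of male mice. They are the sterol O-acyltransferases Soat1 and Soat2, the neutral lipases Lipe, Nceh1 and Pnpla2, and the perilipins Plin1 to Plin5. All 10 had reads in both libraries and passed the minimum of 10 reads in both libraries together. The mice were hybrids of the strain B6CASTF1/J aged 25 days, untreated as far as the labels say, and total RNA of the gland was read as long sequencing reads in 2 libraries of 1 group, called replicate 1 and replicate 2. The labels number the libraries as biological replicates 1 and 2. They also give both the same donor record and number their animals inconsistently, so the spread between the libraries may be technical. With 1 group, no condition was compared, and every test below compares 2 libraries.

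Cells of the adrenal cortex make steroid hormones from cholesterol, and they keep a reserve of it as cholesteryl ester inside lipid droplets. Sterol O-acyltransferases esterify cholesterol for storage, neutral lipases hydrolyse the esters and triglycerides of the droplet, and perilipins coat the droplet and control the access of lipases to it. Corticotropin, through cyclic AMP and protein kinase A, is known to activate hormone-sensitive lipase in these cells.

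Lipe, the gene of hormone-sensitive lipase, has several annotated first exons, and the junctions below tell its transcripts apart. Each line gives the last 15 bases of the first exon in capitals and the 15 bases of the shared second exon in lower case, from the GENCODE M21 transcripts (mm10, chromosome 7, minus strand).
Lipe-202: AGAGGCCAGGGAGGGcctcagcgttctcac
Lipe-201: AAGGCAAGATCAAAGcctcagcgttctcac
Lipe-204: ACTACTGGGACACAGcctcagcgttctcac
The second exon opens with the stretch printed next, in which capitals mark the start codon that Lipe-202 uses.
Lipe exon 2: cctcagcgttctcacacagcATGgatttac
The first exon of Lipe-202 (45 bases, chr7:25390062-25390106) holds no coding sequence, so its 759 codons begin at that start codon, 20 bases into the second exon. The first exon of Lipe-201 (879 bases, chr7:25395501-25396379) brings 109 coding bases, and the protein of 802 codons is 43 codons longer at its start. Lipe-204 (first exon chr7:25397598-25398710) encodes 1072 codons, 313 more than Lipe-202, and corresponds to the long form known from testis.

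The levels of the 10 genes are counts of reads per 1000000 reads in annotated mouse genes (CPM), with no length correction. How PCR copies of a molecule were counted is not given. Replicate 1 held 752432 such reads and replicate 2 held 1210671, and the limit set by a count of 0, which is 3 reads, equals 3.99 CPM for replicate 1 and 2.48 CPM for replicate 2. Together the 10 genes reached 3146 CPM in replicate 1 and 2084 CPM in replicate 2 (2615 ± 751 CPM, SD, n = 2). In replicate 1 the order of levels ran from Soat1 through Pnpla2, Plin2, Plin1, Plin5, Nceh1, Plin3, Lipe and Plin4 to Soat2. In replicate 2 it ran from Pnpla2 through Plin2, Plin1, Soat1, Plin5, Lipe, Plin3, Nceh1 and Soat2 to Plin4. The 95% counting intervals of neighbours overlapped for Pnpla2 and Plin2 in both libraries, for Plin5 and Nceh1, Plin3 and Lipe, and Plin4 and Soat2 in replicate 1, and for Soat1 and Plin5, Plin3 and Nceh1, and Soat2 and Plin4 in replicate 2. These intervals cover counting error only.

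**Figure D1:**
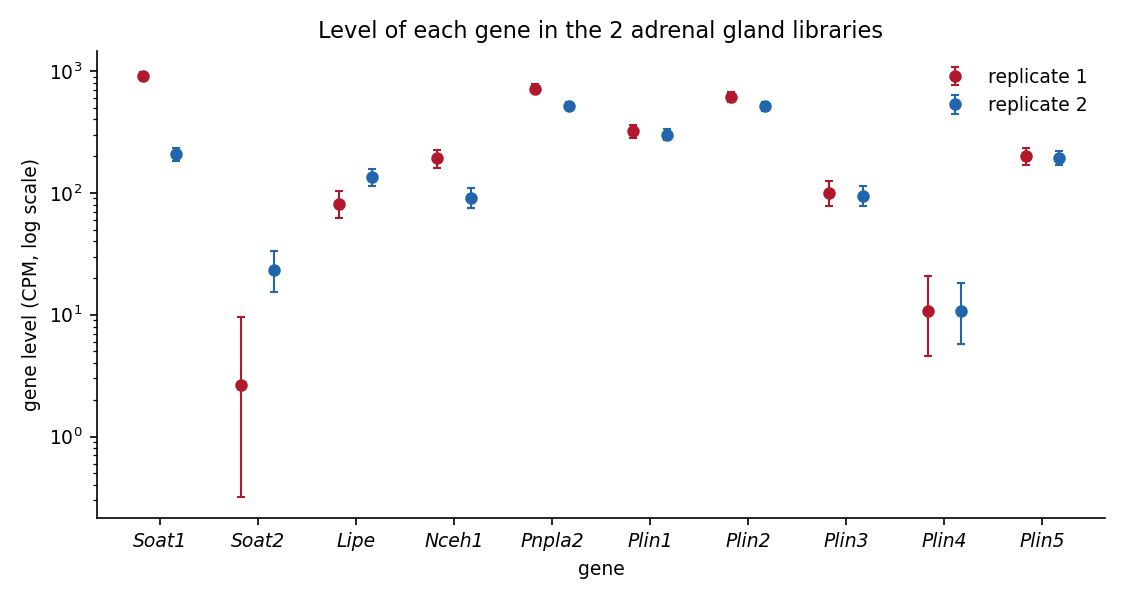
Gene level in CPM on a log axis for each of the 10 genes, replicate 1 left of replicate 2, with 95% Clopper-Pearson counting intervals as bars. Soat1 stood at 910.4 CPM in replicate 1 and 206.5 CPM in replicate 2, Soat2 the other way round at 2.66 and 23.1 CPM, and the 5 perilipins lay at nearly equal heights in both libraries.

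The libraries differed in their tissue content, and the values that bear on the results are these. The sum of the 8 cortex markers, all detected, was 63522 CPM for replicate 1 and 25985 CPM for replicate 2, and that of the 6 chromaffin markers, all detected, 9421 and 7144 CPM. The cortex marker Mc2r (39.9 CPM in replicate 1, 55.3 in replicate 2) and the chromaffin marker Ddc (9.30 and 29.7 CPM) went the other way. All other markers of these lists went with the sum. The 8 liver markers came to 5.32 CPM in replicate 1, where Apoa1, Ahsg, Gc, Fgb, Ttr and Apob were at 0, and to 47428 CPM in replicate 2. The 8 skeletal muscle markers came to 2448 CPM in replicate 1 and only 0.826 CPM in replicate 2, where 7 of them were at 0. The 10 adipocyte markers, all detected in both libraries, came to 4185 CPM for replicate 1 and 2703 CPM for replicate 2, the 6 macrophage markers to 249.9 and 223.8 CPM, and all 5 testis markers were at 0. The part that RNA of other tissues has in the levels below was not tested, and in bulk tissue fewer cells of a type cannot be told apart from less RNA per cell.

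Of the 10 genes, 4 were higher and 2 lower in replicate 1, and 4 were not called, by a two-sided Fisher's exact test of read counts with Benjamini-Hochberg adjustment over 11382 genes. The background over those genes was 25.3% higher and 11.5% lower, 36.8% in either direction. The median log2 ratio of replicate 1 over replicate 2 was 0.09 for the 10 genes and 0.34 for all genes tested. Scaling by edgeR's TMM factors moved the point of no change up by 0.35 on the log2 scale, and DESeq2's size factors by 0.40. With TMM factors 2 of the 10 genes were higher and 2 lower, against 13.7% and 17.7% of all genes. With size factors 2 were higher and 3 lower, against 12.2% and 19.3%.

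**Figure D2:**
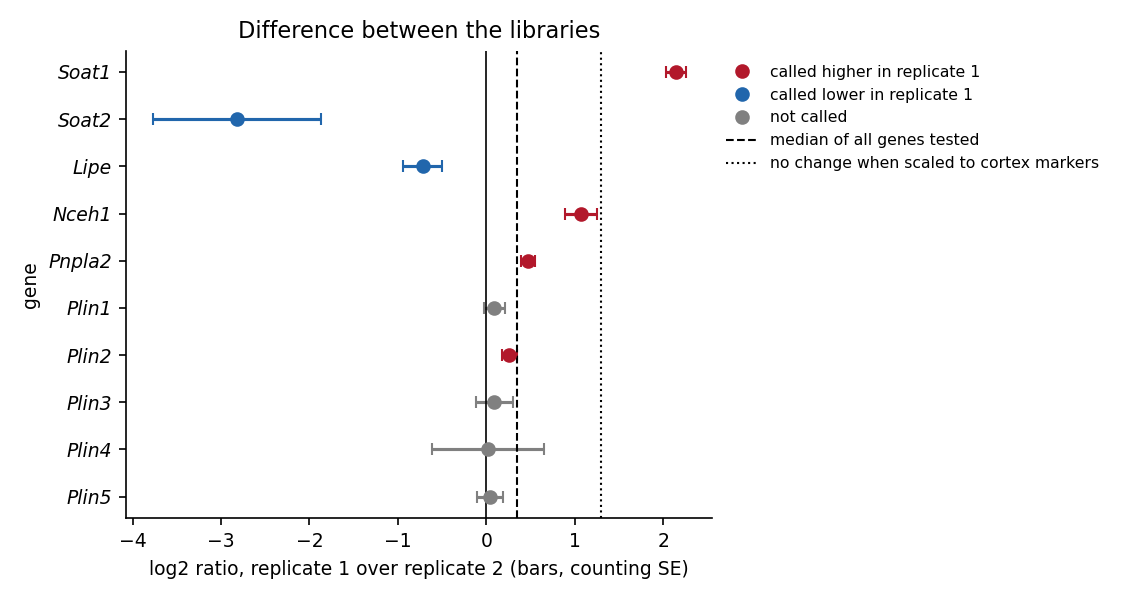
Log2 ratio of replicate 1 over replicate 2 for each gene, with counting standard errors as bars and colour for the call. The dashed line marks the median of all genes tested (0.34) and the dotted line the position of no change when libraries are scaled to the cortex markers (1.29): only Soat1, at 2.14, lies right of the dotted line, and the 5 perilipins lie between 0.02 and 0.26, values that turn negative with TMM factors.

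The acyltransferases moved in opposite directions. Soat1, the isoform known to esterify cholesterol in steroid-making cells and macrophages (chr1:156424525-156474331), had 685 reads in replicate 1 and 250 in replicate 2. Its level, 910.4 CPM in replicate 1, was 206.5 CPM in replicate 2, and it ranked 97 among genes in replicate 1 and 833 in replicate 2. The log2 ratio was 2.14 ± 0.11 (SE), a fold of 4.41 (95% counting interval 3.81 to 5.12), with an adjusted p of 4.40e-102 by Fisher's exact test. It stayed higher under every scaling tried, with a log2 ratio of 1.79 with TMM factors and 0.85 when libraries were scaled to the cortex markers, a scaling chosen after seeing the data. Against Star, the carrier of cholesterol into mitochondria, Soat1 had 0.105 reads per read in replicate 1 and 0.0492 in replicate 2, so the difference was larger than that of this cortical gene.

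Soat2, the isoform known from liver and intestine (chr15:102150526-102163469), had 2 reads in replicate 1 and 28 in replicate 2. The levels were 2.66 CPM in replicate 1, under the 3-read limit, and 23.1 CPM in replicate 2, and the ratio of replicate 1 over replicate 2 was 0.115 (95% counting interval 0.0133 to 0.456, adjusted p = 9.73e-04, Fisher's exact test). Soat2 gave 0.291% of the acyltransferase reads in replicate 1 and 10.1% in replicate 2. Of its reads, 1 in replicate 1 and 24 in replicate 2 followed the annotated chain of 15 exons, Soat2-201. The liver markers, at 5.32 CPM in replicate 1 and 47428 CPM in replicate 2, moved the same way, and their part in the Soat2 reads was not tested.

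Among the lipases, Pnpla2 and Nceh1 were higher and Lipe was lower in replicate 1. With libraries scaled to the cortex markers, Pnpla2 turned to -0.82 on the log2 scale and was called lower (adjusted p = 6.04e-21, exact binomial test). Nceh1 turned to -0.22 and was not called. Under this scaling 54.4% of all genes tested were called lower and 2.28% higher, with a median log2 ratio of -0.95. Pnpla2 encodes adipose triglyceride lipase, which takes the first acyl chain from triglycerides (chr7:141455198-141460743). It had 539 reads in replicate 1 and 626 in replicate 2, at 716 CPM and 517 CPM, with a log2 ratio of 0.47 ± 0.08 (SE, adjusted p = 3.57e-07, Fisher's exact test). This call was lost with TMM factors, with size factors and with genes over 10-fold different left out of the total, where the log2 ratio lay between 0.07 and 0.12. Pnpla2 made up 72.5% of the lipase reads in replicate 1 and 69.7% in replicate 2.

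Nceh1, a neutral cholesteryl ester hydrolase of the endoplasmic reticulum (chr3:27182965-27284608), had 144 reads in replicate 1 and 110 in replicate 2. The levels of 191 CPM in replicate 1 and 90.9 CPM in replicate 2 gave a log2 ratio of 1.07 ± 0.18 (SE, adjusted p = 4.31e-08, Fisher's exact test). The sum of the 8 cortex markers moved the same way (63522 CPM in replicate 1, 25985 CPM in replicate 2), with 7 of them called higher and 1 not called. With libraries scaled to them the ratio of Nceh1 was no longer called (adjusted p = 0.329, exact binomial test), and only 2.28% of all genes were called higher. The part of cortex content in the Nceh1 reads was not tested. Soat1 outnumbered Nceh1 by a ratio of 4.76 in replicate 1 and 2.27 in replicate 2.

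Lipe (chr7:25379527-25398710) had 61 reads in replicate 1 and 162 in replicate 2, at 81.1 CPM and 134 CPM. The log2 ratio was -0.72 ± 0.22 (SE, adjusted p = 0.00296, Fisher's exact test). In replicate 2, 38 of the 162 reads belonged to a single-exon model of 135 bases at the 3′ end of the gene (chr7:25379527-25379661), of the class that the authors call genomic. Without genomic-class models the log2 ratio was -0.39 with an adjusted p of 0.176, and with known transcripts alone it was -0.29 with an adjusted p of 0.471. Among the alternatives tried, the lower call for Lipe was lost only where these models were not counted. An antisense gene annotated across Lipe, 4732471J01Rik, had 5 reads in replicate 1 and 6 in replicate 2 on the other strand.

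The perilipins kept nearly constant proportions. Plin2, the perilipin of most non-adipose cells (chr4:86648386-86670060), had 463 reads in replicate 1 and 621 in replicate 2, at 615 CPM and 513 CPM, with a log2 ratio of 0.26 ± 0.09 (SE, adjusted p = 0.0116, Fisher's exact test). That ratio was below the median of all genes, and the call was lost with TMM factors, where the log2 ratio was -0.09. With libraries scaled to the cortex markers, Plin2 was called lower (log2 ratio -1.03, adjusted p = 3.08e-30, exact binomial test). That ratio was near the median of all genes under the same scaling, -0.95, where 54.4% of all genes were called lower. Plin2 gave 49.5% of the perilipin reads in replicate 1 (95% interval 46.2 to 52.7) and 46.1% in replicate 2 (43.4 to 48.8).

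Plin1, the coat protein of adipocyte droplets that protein kinase A phosphorylates (chr7:79720218-79732903), had 240 reads in replicate 1 and 364 in replicate 2, at 319 and 301 CPM. Its log2 ratio was 0.09 ± 0.12 (SE, adjusted p = 0.628, Fisher's exact test), and it gave 25.6% of the perilipin reads in replicate 1 and 27.0% in replicate 2. Other scalings turned the log2 ratio, which was called lower with size factors (-0.32, adjusted p = 0.0280) and with libraries scaled to the cortex markers (-1.20, adjusted p = 3.60e-23), both by exact binomial tests. Under the cortex scaling 54.4% of all genes were called lower, and their median log2 ratio was -0.95. Plin5, known from oxidative tissues (chr17:56111601-56117596), had 150 reads in replicate 1 and 235 in replicate 2, at 199 and 194 CPM (log2 ratio 0.04 ± 0.15, adjusted p = 0.887), and it too was called lower with libraries scaled to the cortex markers (-1.25, adjusted p = 3.81e-16). Plin1 therefore outnumbered Plin5 by a ratio of 1.60 in replicate 1 and 1.55 in replicate 2.

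Plin3, the widely expressed perilipin that moves between cytosol and droplets (chr17:56277476-56292873), had 75 reads in replicate 1 and 114 in replicate 2, at 99.7 and 94.2 CPM, with an adjusted p of 0.824 (Fisher's exact test). It was called lower with libraries scaled to the cortex markers (log2 ratio -1.20, adjusted p = 7.66e-08, exact binomial test), as were 54.4% of all genes. Plin4, which coats droplets of fat and muscle (chr17:56100591-56109803), had 8 reads in replicate 1 and 13 in replicate 2, at 10.6 and 10.7 CPM, with an adjusted p of 1.00. The counting interval of the Plin4 ratio, 0.356 to 2.58, leaves room for a difference of either sign. The 95% intervals of all 5 perilipin shares overlapped between the libraries. The muscle markers stood at 2448 CPM in replicate 1 and at 0.826 CPM in replicate 2. The liver markers stood at 5.32 CPM in replicate 1 and at 47428 CPM in replicate 2. Of the 10 adipocyte markers, 5 were higher, 1 was lower and 4 were not called in replicate 1. Their median log2 ratio was 0.35, against 0.34 over all genes tested. The part of any of these tissues in the perilipin reads was not tested.

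The first exon of Lipe was read from known, NIC and NNC models, which had 48 reads in replicate 1 and 88 in replicate 2. Of these, 42 and 79 had an annotated first splice donor, and shares were taken over them. NIC models join annotated splice sites in a new way and NNC models contain a new splice site. Incomplete splice match (ISM) models, which are shortened forms of an annotated chain, were left out. The exon of Lipe-202 was used by 25 of 42 reads in replicate 1 (59.5%, 95% interval 43.3 to 74.4) and 34 of 79 in replicate 2 (43.0%, 31.9 to 54.7). That of Lipe-201 was used by 13 reads in replicate 1 (31.0%) and 32 in replicate 2 (40.5%). Reads of both first exons were thus present in each library, and the intervals of their shares overlapped.

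Over both libraries together 59 of 121 reads, 48.8% (39.6 to 58.0), used the exon of Lipe-202. The share of Lipe-202 was not called different between the libraries (adjusted p = 0.713, Fisher's exact test over 2275 genes, of which 2.77% were called). Setting Lipe-202 against Lipe-201 alone gave 65.8% in replicate 1 and 51.5% in replicate 2 (Fisher's exact test, p = 0.217). No read in either library used the first exon of Lipe-204, which allows a share of up to 7.14% in replicate 1 and 3.80% in replicate 2, and none used that of Lipe-205 (chr7:25390352-25390477). All 5 testis markers were at 0 as well.

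A further 4 reads in replicate 1 and 12 in replicate 2 had the first donor of Lipe-208, whose first exon (chr7:25388118-25389224) contains the second exon of the other forms. Since that donor is also an internal donor, these reads cannot be told apart from reads of Lipe-201 or Lipe-202 that lost their 5′ end. The donor of the second exon of Lipe-205, at position 25389719, is not annotated as a first donor. It was the first donor of 3 reads in replicate 1 and 6 in replicate 2, and these too may have lost their 5′ end. A chain with 3 of them in replicate 1 and 5 in replicate 2 has a first exon modelled from 25390106, where the first exon of Lipe-202 starts. Such reads were not counted for Lipe-202.

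The RefSeq promoter table (GRCm38.p6) holds 2 starts for Lipe, and 9 of the 10 genes have an entry. The start near Lipe-202 lies at 25390112, 6 bases before the GENCODE exon. The 250 bases before it are 58.8% GC with a single CpG, against 62.8% GC and 18 CpG before the other Lipe start, at 25395987, and a median of 52.4% GC and 6 CpG over 32851 promoter windows. That other start and the 250 bases before it lie inside the GENCODE first exon of Lipe-201 (chr7:25395501-25396379), so they are not sequence upstream of that exon. The bases before the start of Lipe-202 (chr7:25390113-25390351, minus strand) are shown with the CpG in capitals, because they lie next to the Lipe first exon with the most reads. The stretch leaves out the bases that belong to the exon of Lipe-205.
Lipe-202 promoter: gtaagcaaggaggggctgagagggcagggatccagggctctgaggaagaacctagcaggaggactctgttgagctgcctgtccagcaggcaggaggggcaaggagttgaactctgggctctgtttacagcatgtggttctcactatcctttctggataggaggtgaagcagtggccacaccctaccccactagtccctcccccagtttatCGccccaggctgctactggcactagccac
On both strands of the 250 bases, none of the 9 genes had CAAGGTCA, bound by Nr5a1 (found in 1.33% of all windows), TGACGTCA, the cyclic AMP response element (1.55%), its part TGACG (17.8%) or the TATA box TATAAA (12.4%). The E-box CACGTG occurred in a window of 2 of the 9, Lipe and Nceh1 (6.02% of windows), GGGCGG in 4 (32.7%) and CCAAT in 6 (33.8%). For Lipe, the E-box and GGGCGG matches lay only in the window of the start at 25395987, within the exon of Lipe-201. A window without these letters says nothing about binding elsewhere.

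**Figure D3:**
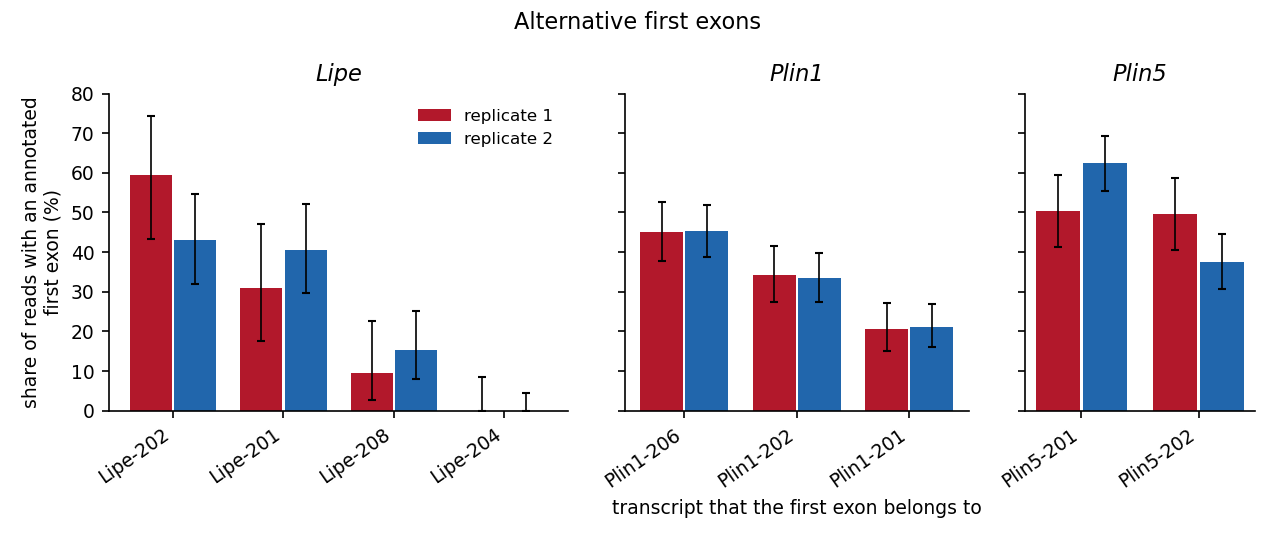
Share of reads that used each annotated first exon of Lipe, Plin1 and Plin5, in percent of the reads with an annotated first exon, replicate 1 left of replicate 2, with 95% Clopper-Pearson intervals. Lipe was divided mainly between Lipe-202 (59.5% and 43.0%) and Lipe-201 (31.0% and 40.5%), Lipe-204 had no read, and the 3 exons of Plin1 had almost equal shares in both libraries.

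Plin1 and Plin5 also used more than 1 annotated first exon. The junctions of their upstream exons show how the alternatives of Plin1 join the same second exon, with the first exon in capitals (GENCODE M21, mm10, minus strand).
Plin1-206: TGGCGGTCTGCTGCAcgtggagagtaagga
Plin1-201: TTCTCGGTGTTACAGcgtggagagtaagga
Plin5-201: GAGCTCTGCACCCAGggatctgattctctg
The donor of Plin1-206, shared with Plin1-203, was used by 83 of 184 reads in replicate 1 (45.1%) and 107 of 236 in replicate 2 (45.3%). The donor of Plin1-201, shared with Plin1-205, was used by 38 reads in replicate 1 (20.7%) and 50 in replicate 2 (21.2%), and that of Plin1-202 by 63 (34.2%) and 79 (33.5%). Each of these 3 transcripts has 517 codons.

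Plin5-201 was used by 63 of 125 reads in replicate 1 (50.4%) and 122 of 195 in replicate 2 (62.6%), and Plin5-202 by 62 (49.6%) and 73 (37.4%), without a called difference (adjusted p = 0.477, Fisher's exact test). Both have 463 codons. The donors of Plin1-202 and Plin5-202 are also internal donors, so reads that lost their 5′ end count there as well. In Soat1, Pnpla2 and Plin2 a single first donor took 98.3% or more of such reads in each library, and 0 of 6 genes tested were called different in the share of the leading first exon by Fisher's exact test with adjustment, with only Plin5 under 0.05 before adjustment (p = 0.0369).

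The leading chain of exons, the multi-exon chain with the most reads over both libraries together, took most reads of 5 of the 8 genes that had 20 or more reads in each library. Nceh1-201 had 131 of 144 reads in replicate 1 (91.0%) and 93 of 110 in replicate 2 (84.5%), Plin2-201 had 92.7% and 90.5%, and Plin3-201 had 73.3% and 78.1%. Soat1-207 had 82.5% in replicate 1 and 67.6% in replicate 2, and Pnpla2-203 had 84.8% and 67.3%. The leading chains of Lipe (34.4% and 18.5%), Plin1 (32.9% and 28.3%) and Plin5 (36.7% and 44.3%) stayed under 50% in both libraries. For Lipe the leading chain was Lipe-202, while in replicate 2 Lipe-201 had 31 reads (19.1%) and Lipe-202 had 30.

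The leading share differed between the libraries for Soat1 (adjusted p = 7.91e-05) and Pnpla2 (adjusted p = 2.13e-10), 2 of 8 genes, against 11.9% of 5612 genes, by Fisher's exact test. ISM models of Pnpla2 had 66 reads in replicate 1 and 157 in replicate 2, and a single-exon genomic-class model of 1879 bases had 36 reads in replicate 2. The ISM chain with the most reads, of 6 exons, had 16 in replicate 1 and 71 in replicate 2. The next, of 8 exons, had 19 and 47. In a model of that chain the first exon (chr7:141455207-141457505) starts within the first exon of Pnpla2-203 (chr7:141455198-141455473) and runs on past its end. ISM models of Soat1 had 25 reads of 685 in replicate 1 (3.65%) and 42 of 250 in replicate 2 (16.8%). Over all genes ISM models took 9.44% of reads in replicate 1 and 11.9% in replicate 2. Counting known transcripts alone, the share of Soat1-207 differed by 1.73 percentage points (adjusted p = 0.943) and that of Pnpla2-203 by -0.179 percentage points (adjusted p = 1.00).

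**Figure D4:**
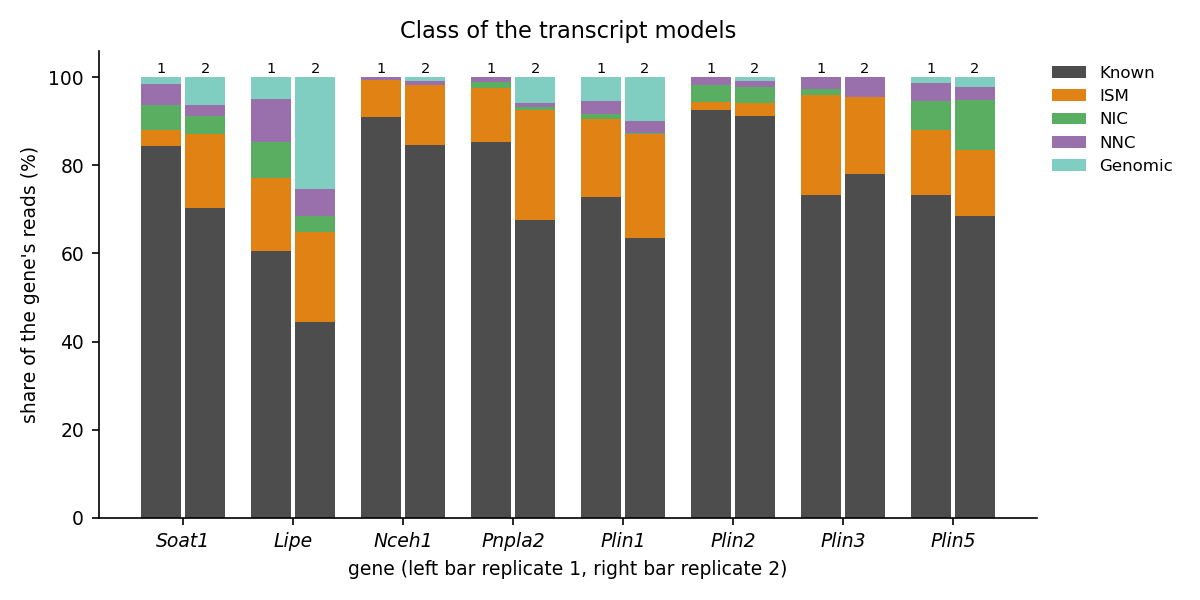
Share of each gene's reads by class of the transcript model, for the 8 genes that had 20 or more reads in each library, left bar replicate 1 and right bar replicate 2. The known class of Pnpla2 took 85.3% in replicate 1 and 67.6% in replicate 2, with the ISM class at 12.2% and 25.1%, and Lipe in replicate 2 had 25.3% genomic-class reads.

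Several other chains had reads in both libraries. In Soat1 a chain of 15 exons, with 17 reads in replicate 1 and 8 in replicate 2, skipped the second exon of Soat1-207 (118 bases, chr1:156466681-156466798), of which 88 bases are coding and which holds the annotated start codon 30 bases in. The junctions with and without that exon are printed with the first exon in capitals (GENCODE M21, mm10, minus strand).
Soat1 exons 1 and 2: GCCCTCCGCTCGCAGgaagcttgattgata
Soat1 exons 1 and 3: GCCCTCCGCTCGCAGgtcacattaccatga
The chain without the second exon made up 2.48% of Soat1 reads in replicate 1 (95% interval 1.45 to 3.94) and 3.20% in replicate 2 (1.39 to 6.21). The full chain of Soat1-207, 540 codons, had 565 reads in replicate 1 and 169 in replicate 2.

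Plin2 had a chain of 9 exons with 10 reads in replicate 1 and 12 in replicate 2, whose last exon (chr4:86647681-86648579) lies beyond the last exon of Plin2-201. In Plin5 a chain of 7 exons that lacks the third exon of Plin5-202 (196 bases, chr17:56116258-56116453) had 1 read in replicate 1 and 10 in replicate 2. It contains a junction that is not annotated, and with so few reads in replicate 1 its share cannot be compared closely.

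No read of Plin4 followed a full annotated chain. Both annotated transcripts have an intron of 594 bases, in Plin4-201 chr17:56105523-56106116, inside the long repeat region that encodes the droplet-binding part of the protein. In replicate 1, 2 reads, and in replicate 2, 10 reads had an exon running across this intron, and 0 reads in either library spliced it. The chain of 8 exons with 1 read in replicate 1 and 5 in replicate 2 joined exons 5 and 6 of Plin4-201 into a single exon from 56103417 to 56107374. The intron length equals 6 repeats of 99 bases, or 33 codons each, and in the annotated exons 5 and 6 of 3364 bases, 67.3% of bases equalled the base 99 positions on, against a median of 25.3% at spacings that are no multiple of 99. The 99 coding bases on each side of the intron are printed below, with the 9 bases that differ in capitals.
Plin4 before the intron: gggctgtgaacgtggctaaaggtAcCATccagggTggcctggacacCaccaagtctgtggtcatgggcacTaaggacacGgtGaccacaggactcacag
Plin4 after the intron: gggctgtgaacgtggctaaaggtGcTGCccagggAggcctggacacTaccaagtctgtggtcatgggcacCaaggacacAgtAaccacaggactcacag
The stretches (chr17:56106117-56106215 and chr17:56105424-56105522, GENCODE M21, minus strand) thus shared 90 of 99 bases. Near-identical repeats leave the place of a splice site uncertain, and the gene overlaps Hdgfl2 on the other strand at its 3′ end.

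Related genes of the droplet showed no common direction. Of 13 genes of droplet proteins and regulators, 11 were tested, 4 were higher and 4 lower in replicate 1, with a median log2 ratio of 0.27 against 0.34 for all genes. Cidea, which joins droplets in brown fat and is also in the adipocyte marker list, had 776 CPM in replicate 1 and 643 CPM in replicate 2. Cidec, which enlarges droplets in fat, had 581 CPM in replicate 1 and 228 CPM in replicate 2 (log2 ratio 1.35 ± 0.11, adjusted p = 1.43e-33, Fisher's exact test). Hsd17b13, a droplet protein known from liver, had 0 reads in replicate 1 and 125 in replicate 2.

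The counts of the other lists stand beside a background of 25.3% higher and 11.5% lower in replicate 1 and a median log2 ratio of 0.34 over all genes tested. Of 10 tested genes of triglyceride synthesis (median log2 ratio -0.13), 3 were higher and 4 lower in replicate 1, with Dgat2, the acyltransferase of the last step, at 1207 CPM in replicate 1 and at 1406 CPM in replicate 2. Of 14 other lipases tested (median 0.09), 3 were higher and 6 lower, and Lpl, which frees fatty acids from lipoproteins, stood at 1199 CPM in replicate 1 and at 493 CPM in replicate 2. Among 10 genes of acyl-CoA supply (median 0.45), 4 were higher and 2 lower, among them Scd1, a desaturase of fatty acids, at 1352 CPM in replicate 1 and 341 CPM in replicate 2 (log2 ratio 1.99 ± 0.08, adjusted p = 3.93e-137, Fisher's exact test). Of 12 genes of cholesteryl ester uptake and transport (median 0.27), 2 were higher and 2 lower, and Scarb1, the receptor that takes up cholesteryl ester from lipoproteins, had 2065 CPM in replicate 1 and 953 CPM in replicate 2. Soat1 reads stood at 0.441 per Scarb1 read in replicate 1 (95% interval 0.402 to 0.483) and 0.217 in replicate 2 (0.188 to 0.249), so within each library the storage enzyme had fewer reads than the uptake receptor, and its difference between the libraries was the larger.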

How the data were processed

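Total RNA of adrenal gland was measured by long-read RNA sequencing in 2 libraries of 1 group. The authors deposited counts of reads per transcript model for each library, not normalised, with exon coordinates (mm10 and GENCODE M21, per the file headers). Not given in the sources used here: aligner, settings of the model caller, handling of PCR copies. Each model carries a class from the authors, and known models share the annotated chain of introns without proof of their ends.

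Per gene, reads were added over its models, and CPM was taken over reads in annotated mouse genes, leaving out spike-ins (11058 reads in replicate 1 and 17139 in replicate 2) and other loci (30509 and 62532). A model of replicate 1 and a model of replicate 2 with the same strand and introns counted as the same chain. Fisher's exact test (two-sided, Benjamini-Hochberg, threshold 0.05) compared the libraries for genes with at least 10 reads together, and shares of chains and first exons for genes that had 20 or more reads in each library. Log2 ratios add 0.5 reads. Intervals are 95% Clopper-Pearson. edgeR's quasi-likelihood test could not be fitted with 1 group. Scaling factors came from edgeR 4.0.16 and DESeq2 1.42.0, with exact binomial tests. Tests were checked on simulated counts with set changes and counting error alone, a check that does not cover other variation between libraries. Python 3.11.15 with scipy 1.17.1 was used.

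The 10 genes, the related lists and the marker lists were chosen with earlier results of these data known. Named are the 10 genes and some of the chains with at least 5 reads. Of each related list, genes among the 4 with the highest mean level or with the largest called ratio in each direction are named. The antisense gene at Lipe and the overlapping Hdgfl2 were named for their position. Promoters were matched by symbol to RefSeq.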

Additional observations from a re-analysis of the deposited data

Results flagged for a closer look

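Reads of models outside annotated genes, on the strand opposite to the members, exceeded the 3-read limit that a count of 0 allows at 4 of the 10 genes, and none of the comparisons used them. At Soat1 replicate 1 had 53 such reads, 31 of them, and replicate 2 had 177, 131 of them, from a single-exon model (chr1:156424525-156428532) that covers the 3′ end of the gene. At Plin1 replicate 1 had 25, 18 of them, and replicate 2 had 114, 103 of them, at the same single-exon place (chr7:79720466-79721164). At Nceh1 replicate 1 had 24, all in a single-exon model inside the gene, and replicate 2 had 22, 18 of them in such a model at the same place. At Plin3 there were 4 in replicate 1 and 6 in replicate 2. Multi-exon antisense reads numbered 0 in replicate 1 and, in replicate 2, 2 at Soat1 and 1 at Plin1. Soat1 sense reads were higher and its antisense reads lower in replicate 1, a contrast that was not tested.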

How the results depend on the processing

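The number of members higher in replicate 1 was 4 as reported (25.3% of all genes tested). It was 2 with TMM factors (13.7%), 2 with size factors (12.2%) and 2 with genes over 10-fold different left out of the total (13.0%). Scaled to the 8 cortex markers, an alternative chosen after seeing the data, it was 1 (Soat1), against 2.28% of all genes. The number lower was 2 as reported (11.5% of all genes), 1 with known transcripts alone (11.5%) and 1 without genomic-class models (12.1%). Scaled to cortex markers it was 7, where 54.4% of all genes were called lower and their median log2 ratio was -0.95. With TMM factors the log2 ratios of Plin1, Plin2, Plin3, Plin4 and Plin5 turned to -0.26, -0.09, -0.26, -0.33 and -0.31, with size factors to -0.32, -0.14, -0.32, -0.39 and -0.36 (Plin1 was then called lower, adjusted p = 0.0280), and with the 10-fold genes left out to -0.27, -0.09, -0.27, -0.34 and -0.32. Scaled to cortex markers, Nceh1, Pnpla2 and Plin1 to Plin5 turned to -0.22, -0.82, -1.20, -1.03, -1.20, -1.27 and -1.25. Plin3 turned to -0.03 with known transcripts alone and -0.05 without ISM models, Plin4 to -0.69 without genomic-class models and -0.14 without ISM models, and Plin5 to -0.07 with replicate 2 thinned. By construction the scalings move every gene alike, and for the other alternatives the cause was not tested. The leading chain share differed for 0 members (2.80% of genes) with known transcripts alone, where the difference for Pnpla2 turned to -0.179 percentage points. For the leading first exon, counting all models turned the differences of Pnpla2, Plin1 and Plin2 to 5.09, 0.494 and 0.506 percentage points, and known transcripts alone those of Plin1 and Plin2 to 0.554 and 0.530, none of them called. Leaving out 1 library moved the summed level between 2084 and 3146 CPM and the share of Lipe-202 between 43.0% and 59.5%. The read minimums of 1 and 20 and thinning left the counts of 4 higher and 2 lower. No paired analysis was possible because the libraries form 1 group. Depth limits Soat2, with 2 reads in replicate 1, and Plin4, with 8 in replicate 1 and 13 in replicate 2, and the first exons of Lipe rest on 42 reads in replicate 1 and 79 in replicate 2.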
